A study of Mus musculus with 2 samples.

Results

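Fc receptors are the proteins by which cells bind the constant part of antibodies. The 10 mouse genes described here were chosen by symbol: the Fcγ receptors Fcgr1, Fcgr3, Fcgr4 and Fcgr2b, the common γ chain Fcer1g, the high-affinity IgE receptor chains Fcer1a and Ms4a2, the low-affinity IgE receptor Fcer2a, the IgM receptor Fcmr and the neonatal receptor Fcgrt. All 10 were found among the 32285 genes of both matrices. Single-cell RNA was read from immune cells of the gingiva in a study of experimental periodontitis, with 1 library from C57BL/6 mice of genotype Otud1-/- and 1 from WT mice of the same strain. OTUD1 is a deubiquitinase, and the study's title concerns its part in periodontal inflammation and in neutrophils. The number, sex and age of the animals, whether both groups were treated alike, how the cells were isolated and which part of Otud1 is deleted are not given in the sources used here. With 1 library per genotype there is no replicate, so no test was run, and all 95% intervals (exact Poisson for levels, exact conditional binomial for ratios, exact Clopper-Pearson for shares) cover counting error only.

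The activating receptors encoded by Fcgr1, Fcgr3 and Fcgr4 pass their signal through Fcer1g, an adaptor with an immunoreceptor tyrosine-based activation motif (ITAM) that recruits the kinase Syk. Fcgr2b carries the opposing inhibitory motif (ITIM), which recruits the phosphatase SHIP1, and myeloid cells set their response to immune complexes by the balance of both kinds, while B cells use Fcgr2b to restrain the antigen receptor. On mast cells and basophils Fcer1a, Ms4a2 and Fcer1g assemble into the receptor that holds IgE.

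The promoters of the IgE receptor chains and of the Fcγ receptors are shown first because the IgE receptor chains were the genes most restricted to 1 cell class, while the Fcγ genes differed in the classes that held them. Sequences are from RefSeq on GRCm38.p6 and read 5′ to 3′ on the strand of the gene, ending just before its annotated start. Capitals mark, for the IgE receptor chains, the GATA-family core GATAA or its reverse complement TTATC in 250 bases (chr1:173227230-173227479, minus strand, for Fcer1a and chr19:11623720-11623969, minus strand, for Ms4a2).
Fcer1a: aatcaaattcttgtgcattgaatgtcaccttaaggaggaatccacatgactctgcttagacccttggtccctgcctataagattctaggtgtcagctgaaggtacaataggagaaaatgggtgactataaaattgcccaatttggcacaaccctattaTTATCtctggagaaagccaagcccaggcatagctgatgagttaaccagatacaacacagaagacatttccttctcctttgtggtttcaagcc
Ms4a2: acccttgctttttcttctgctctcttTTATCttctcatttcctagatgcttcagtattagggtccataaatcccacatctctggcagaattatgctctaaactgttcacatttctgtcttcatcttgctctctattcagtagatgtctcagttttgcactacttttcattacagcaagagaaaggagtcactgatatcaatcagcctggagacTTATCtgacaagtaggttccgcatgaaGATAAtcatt
Fcer1a held 1 match, starting 92 bases before the gene's start (-92), and Ms4a2 held 3, at -224, -37 and -10. Of all 32851 promoters in the table, 22.6% held these letters on either strand in the same length, so a match is a description and not a binding site. Outside the IgE receptor chains, the same letters were also in the promoters of Fcmr (-43) and Fcgr1 (-164).

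For the Fcγ receptors, 100 bases are shown, with capitals marking the PU.1-type core GAGGAA or its reverse complement TTCCTC. The windows are chr3:96293970-96294069 (minus strand) for Fcgr1, chr1:171059404-171059503 (minus strand) for the first listed start of Fcgr3, chr1:171018826-171018925 (plus strand) for Fcgr4 and chr1:170976072-170976171 (minus strand) for Fcgr2b.
Fcgr1: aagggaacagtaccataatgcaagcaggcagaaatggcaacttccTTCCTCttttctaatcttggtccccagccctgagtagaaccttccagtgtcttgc
Fcgr3: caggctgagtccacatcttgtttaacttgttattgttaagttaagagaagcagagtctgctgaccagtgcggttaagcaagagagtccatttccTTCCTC
Fcgr4: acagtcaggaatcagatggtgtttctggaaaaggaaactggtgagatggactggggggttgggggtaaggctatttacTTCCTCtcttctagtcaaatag
Fcgr2b: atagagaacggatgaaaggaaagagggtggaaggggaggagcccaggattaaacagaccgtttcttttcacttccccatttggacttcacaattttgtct
The activating genes each held 1 match, at -55 in Fcgr1, -6 in Fcgr3 and -22 in Fcgr4, and these letters were not in the window of Fcgr2b. Of all promoters, 9.82% held the letters on either strand in 100 bases.

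After filters, 6486 cells with a median of 4168.5 UMIs (unique molecular identifiers, 1 per tagged transcript) remained in the library labelled Otud1-/- and 11414 cells with a median of 2304.5 UMIs in the WT library. Otud1, scaled to the UMIs of all barcodes before filters, went against the labels. It had 1456 UMIs (33.0 CPM) in the library labelled Otud1-/- and 834 UMIs (18.6 CPM) in the WT library. Xist, which is read in female cells, had 5 UMIs in the library labelled Otud1-/- and 14449 in the WT library, and Y-linked genes had 10368 UMIs in the library labelled Otud1-/- and 6696 in the WT library. Clusters were named by markers, so that each class below is only "like" its name. Levels are CPM, UMIs scaled to the usual common total within a class and library, and gene coordinates are mm10 with GENCODE M21. The 10 genes together had 51868 UMIs in kept cells of the library labelled Otud1-/-, of which Fcer1g gave 31987, and 42622 UMIs in the WT library, of which Fcer1g gave 25386.

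The IgE-binding receptor marked the mast cell/basophil class and almost nothing else. Fcer1a (chr1:173221284-173227214, minus strand), the chain that binds IgE, had 130 of its 131 UMIs there in the library labelled Otud1-/- and 168 of 180 in the WT library. Ms4a2 (chr19:11615523-11623719, minus strand), the signal-amplifying β chain, had 49 of 50 UMIs there in the library labelled Otud1-/- and 58 of 67 in the WT library. The class held only 21 cells in the library labelled Otud1-/- and 118 in the WT library, too few for a counted ratio, so the levels stand side by side. Fcer1a had 1456 CPM (1217 to 1729) in cells labelled Otud1-/- and 734.5 CPM (627.6 to 854.3) in WT cells. Ms4a2 had 548.8 CPM (406 to 725.6) in cells labelled Otud1-/- and 253.6 CPM (192.5 to 327.8) in WT cells. Fcer1g had 2643 CPM (2317 to 3003) in cells labelled Otud1-/- and 1368 CPM (1221 to 1529) in WT cells. All 3 chains of the receptor were thus higher in the 21 cells than in the 118 WT cells beyond counting error, and the median depth was 3797 UMIs in cells labelled Otud1-/- and 1362 UMIs in WT cells.

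The class was led by mast cell proteases, whose levels were also higher in the library labelled Otud1-/-. Cma1, Mcpt4 and Tpsb2, proteases of connective tissue mast cells, had UMIs in all 21 cells labelled Otud1-/- and in all 118 WT cells. Cma1 had 36150 CPM in cells labelled Otud1-/- and 15290 CPM in WT cells, Mcpt4 had 42940 CPM in cells labelled Otud1-/- and 26380 CPM in WT cells, and Tpsb2 had 12210 CPM in cells labelled Otud1-/- and 7646 CPM in WT cells. Their part in the levels of the receptor chains was not tested. The basophil protease gene Mcpt8 had 0 UMIs in cells labelled Otud1-/-, which allows up to 33.6 CPM, and 5 UMIs in WT cells. The basophil protease gene Prss34 had 46 UMIs in 4 cells labelled Otud1-/- and 21 UMIs in 8 WT cells. Other genes of the basophil list were seen in more cells. Cyp11a1 had UMIs in 17 of 21 cells labelled Otud1-/- and in 67 of 118 WT cells. Cd200r3 had UMIs in 15 cells labelled Otud1-/- and 52 WT cells, and Il4 in 5 cells labelled Otud1-/- and 23 WT cells. As counted, transcripts of all 3 receptor chains were seen together in 11 of 21 cells (52.4%) labelled Otud1-/- and in 22 of 118 WT cells (18.6%). At 1000 UMIs per cell Fcer1a was seen in 57.1% (34.0 to 78.2) of cells labelled Otud1-/- and 33.0% (23.6 to 43.4) of WT cells. In the same order, Ms4a2 was then seen in 23.8% and 22.3%, and Fcer1g in 80.95% and 64.9%, with overlapping intervals for each chain. Fcgr2b, which restrains IgE signalling when cross-linked on mast cells, had 5 UMIs in cells labelled Otud1-/- and 28 UMIs (122.4 CPM, 81.3 to 176.9) in WT cells. Dendritic cells, which carry Fcer1a in humans, had 0 of its UMIs in cells labelled Otud1-/-, which allows up to 0.937 CPM, and 1 UMI in WT cells.

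Among the named classes, Fcer1g (chr1:171229572-171234365, minus strand) was found in all myeloid classes and in natural killer (NK) cells. Clusters left unnamed held it too. The cluster led by Gzmc had 1885 CPM in 26 cells labelled Otud1-/- and 1659 CPM in 60 WT cells. The cluster led by Il22 had 713.9 CPM in 7 cells labelled Otud1-/- and 993.5 CPM in 150 WT cells. Of the classes with at least 50 cells in the library labelled Otud1-/-, neutrophils were highest (2684 CPM, 2628 to 2742), followed by monocyte/macrophages (2130 CPM, 2097 to 2163) and NK cells (2036 CPM, 1943 to 2133), whose intervals overlapped, and then by dendritic cells (1159 CPM, 1122 to 1197) and plasmacytoid dendritic cells (865.3 CPM). In the WT library monocyte/macrophages (1572 CPM, 1547 to 1597), NK cells (1533 CPM, 1448 to 1622) and neutrophils (1530 CPM, 1476 to 1585) could not be ordered by their intervals. Mast cells (1368 CPM, 1221 to 1529) lay below monocyte/macrophages and overlapped with NK cells and neutrophils, and plasmacytoid dendritic cells (858.8 CPM) and dendritic cells (749.1 CPM) followed. Neutrophils thus stood above the other classes only in the library labelled Otud1-/-. B cells, which do not signal through the chain, had 20.05 CPM in cells labelled Otud1-/- and 34.97 CPM in WT cells. Their Fcer1g UMIs per UMI of the monocyte lysozyme gene Lyz2 were 0.404 in cells labelled Otud1-/- and 0.381 in WT cells. In monocyte/macrophages the same ratio was lower, at 0.188 in cells labelled Otud1-/- and 0.228 in WT cells. Per UMI of the neutrophil gene S100a9, B cells had 0.1095 Fcer1g UMIs in cells labelled Otud1-/- and 0.35 in WT cells.

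**Figure D1:**
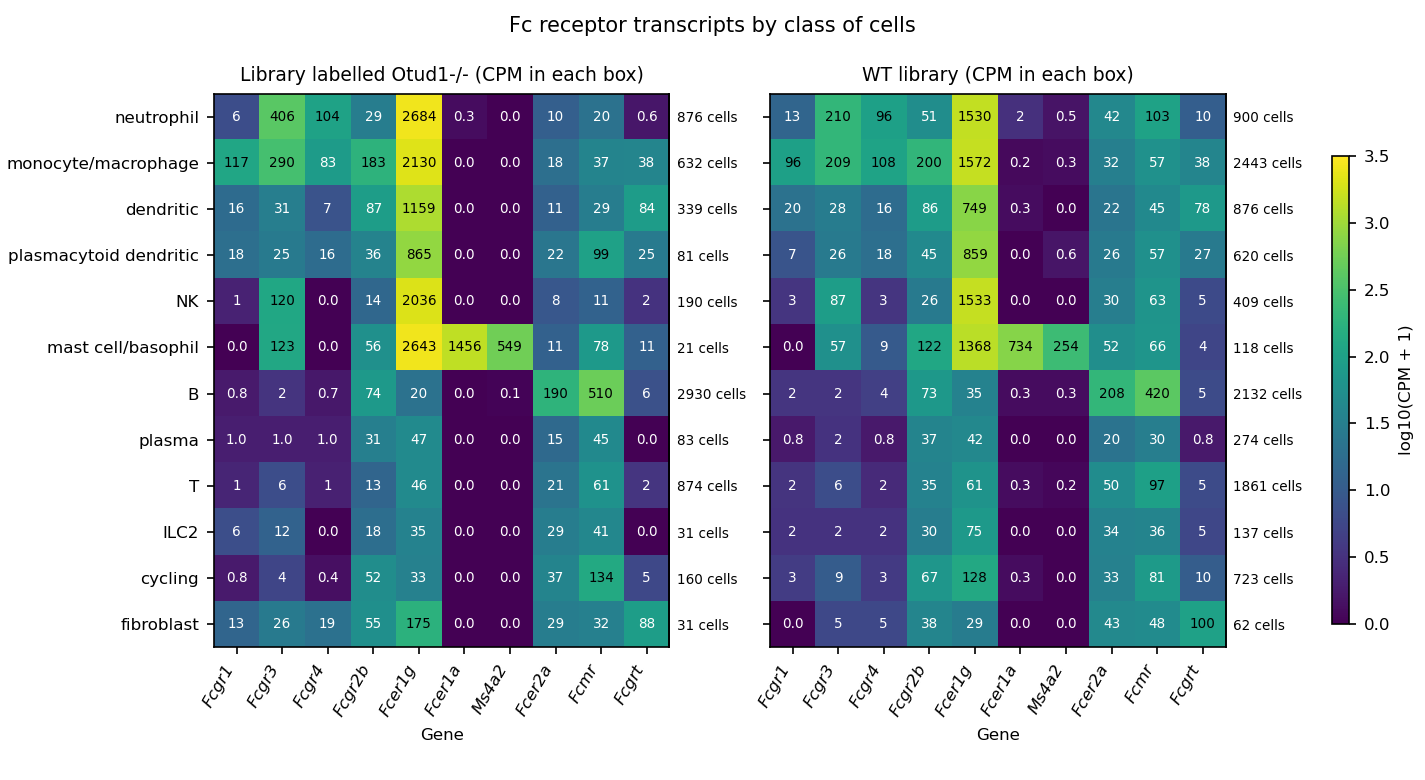
Level of each Fc receptor gene (columns, CPM on a colour scale) in named cell classes with at least 20 cells (rows), with the library labelled Otud1-/- in the left panel and the WT library in the right panel. Fcer1a and Ms4a2 stand out in the mast cell/basophil class, Fcer2a and Fcmr in B cells, and Fcer1g in all myeloid classes and NK cells.

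The share of cells with an Fcer1g UMI was read at equal depth. As counted, 94.9% of neutrophils labelled Otud1-/- and 82.4% of WT neutrophils had one. After each cell was thinned to 1000 UMIs the shares were 90.2% of neutrophils labelled Otud1-/- and 68.9% of WT neutrophils. In monocyte/macrophages the thinned shares were 81.9% in cells labelled Otud1-/- and 73.5% in WT cells, and in NK cells 81.1% in cells labelled Otud1-/- and 74.0% in WT cells. In B cells, taken as the background, they were 2.17% in cells labelled Otud1-/- and 3.81% in WT cells, so the myeloid and NK shares were far above it.

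The activating receptors differed in how widely they were found. Fcgr1 (chr3:96282909-96293969, minus strand), the high-affinity IgG receptor, was the most restricted, and monocyte/macrophages held 88.8% of its UMIs in the library labelled Otud1-/- and 85.7% in the WT library. Their level was 116.8 CPM (109.2 to 124.8) in cells labelled Otud1-/- and 96.39 CPM (90.3 to 102.8) in WT cells. Dendritic cells had 15.93 CPM in cells labelled Otud1-/- and 19.75 CPM in WT cells. Neutrophils had 5.63 CPM in cells labelled Otud1-/- and 12.71 CPM in WT cells. Plasmacytoid dendritic cells had 17.96 CPM (9.28 to 31.4) in cells labelled Otud1-/- and 6.996 CPM (3.62 to 12.2) in WT cells. In the library labelled Otud1-/- their cluster led by Klk1 (23 cells) held 12 Fcgr1 UMIs, 6 of them in 1 cell. Their larger cluster led by Cox6a2 (58 cells) held 0 there. In the WT library these clusters held 5 and 7 UMIs.

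Fcgr3 (chr1:171051174-171064935, minus strand), a low-affinity receptor for IgG complexes, was shared between monocyte/macrophages and neutrophils. Monocyte/macrophages held 57.5% of its UMIs in the library labelled Otud1-/- and 72.7% in the WT library, and neutrophils held 34.1% in the library labelled Otud1-/- and 14.9% in the WT library. The level in neutrophils was 406.4 CPM (384.6 to 429.1) in cells labelled Otud1-/- and 209.5 CPM (189.7 to 230.7) in WT cells. In monocyte/macrophages it was 289.9 CPM (277.9 to 302.3) in cells labelled Otud1-/- and 209.0 CPM (200 to 218.4) in WT cells. Neutrophils were therefore above monocyte/macrophages in the library labelled Otud1-/-, and in the WT library the intervals of the classes overlapped. NK cells, which kill antibody-coated targets through this receptor, had 119.9 CPM in cells labelled Otud1-/- and 86.85 CPM in WT cells, and T cells, most of which lack it, had 5.79 CPM in cells labelled Otud1-/- and 5.75 CPM in WT cells.

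Fcgr4 (chr1:171018920-171029761, plus strand), a receptor for complexes of IgG2 subclasses, was found in the same myeloid classes. In NK cells it had 0 UMIs in the library labelled Otud1-/-, which allows up to 3.42 CPM, and 2 UMIs in the WT library. Neutrophils had 103.8 CPM (92.9 to 115.6) in cells labelled Otud1-/- and 96.08 CPM (82.9 to 110.8) in WT cells. Monocyte/macrophages had 83.25 CPM (76.9 to 90.01) in cells labelled Otud1-/- and 107.7 CPM (101.3 to 114.5) in WT cells. Neutrophils were thus above monocyte/macrophages in the library labelled Otud1-/-, and the classes overlapped in the WT library.

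Within monocyte/macrophages at clustering resolution 1, the one used unless stated, Fcgr1 and Fcgr4 varied more between clusters than Fcgr3. The cluster led by Cfb, Ly6i and Cxcl9 (123 cells labelled Otud1-/- and 849 WT cells) had the most Fcgr1 in both libraries, 232.5 CPM in cells labelled Otud1-/- and 148.8 CPM in WT cells, and its Fcgr4 was 145.3 CPM in cells labelled Otud1-/- and 158.6 CPM in WT cells. The cluster led by Retnla, with the mannose receptor gene Mrc1 (142 cells labelled Otud1-/- and 545 WT cells), had less Fcgr1, 56.5 CPM in cells labelled Otud1-/- and 57.9 CPM in WT cells, and less Fcgr4, 31.3 CPM in cells labelled Otud1-/- and 50.1 CPM in WT cells. Fcgr3 varied less, with 262.4 CPM in cells labelled Otud1-/- and 201.7 CPM in WT cells in the Retnla cluster, and 303.1 CPM in cells labelled Otud1-/- and 201.6 CPM in WT cells in the Cfb cluster. The cluster led by Ace and Vcan (332 cells labelled Otud1-/- and 849 WT cells) had 306.6 CPM in cells labelled Otud1-/- and 238.1 CPM in WT cells of Fcgr3. The place of the highest Fcgr1 level depended on the clustering. At resolution 2 the cluster led by Cfb had 47 cells labelled Otud1-/- and 790 WT cells, with 100.7 CPM in cells labelled Otud1-/- and 139.9 CPM in WT cells of Fcgr1, and the highest level in the library labelled Otud1-/- was in a monocyte cluster led by Vcan and F10 (159.1 CPM, 147.2 to 171.6), which had 127.5 CPM in WT cells.

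**Figure D2:**
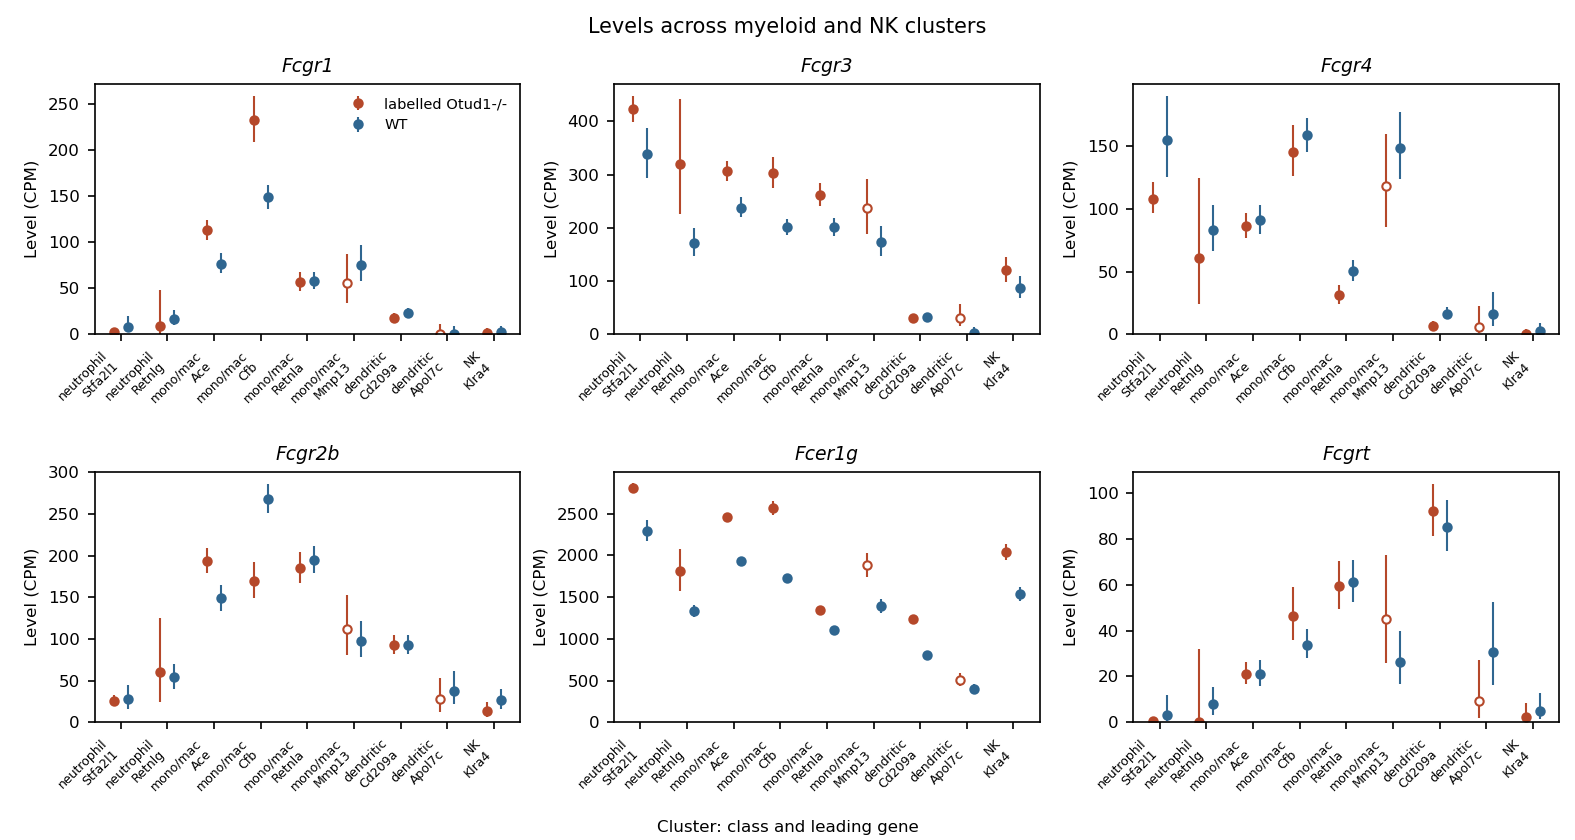
Levels (CPM, with 95% Poisson intervals) of Fcgr1, Fcgr3, Fcgr4, Fcgr2b, Fcer1g and Fcgrt across clusters of myeloid and NK cells, the library labelled Otud1-/- left of the WT library, with open points for under 50 cells. Among these resolution 1 clusters with at least 50 cells in both libraries, Fcgr1 peaks in the Cfb cluster (232.5 CPM labelled Otud1-/-, 148.8 CPM WT) and Fcgr3 in the Stfa2l1 neutrophil cluster (423.1 CPM labelled Otud1-/-, 338.3 CPM WT).

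Fcgr2b (chr1:170958617-170976547, minus strand), the inhibitory receptor, was found in both myeloid and B cells. Monocyte/macrophages had 182.9 CPM (173.4 to 192.8) in cells labelled Otud1-/- and 199.9 CPM (191 to 209) in WT cells. Dendritic cells had 86.8 CPM in cells labelled Otud1-/- and 86.1 CPM in WT cells, and B cells had 74.5 CPM (69.6 to 79.6) in cells labelled Otud1-/- and 72.7 CPM (66.1 to 79.7) in WT cells, so that these classes overlapped in both libraries. Neutrophils were lower, with 29.1 CPM in cells labelled Otud1-/- and 51.4 CPM in WT cells.

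The balance of activating and inhibitory transcripts set the myeloid classes apart. Of the UMIs of all 4 Fcγ receptors, which count tagged 3′ ends and not protein, the activating genes made up 94.7% (93.5 to 95.7) in neutrophils labelled Otud1-/- and 86.1% (83.4 to 88.5) in WT neutrophils. In monocyte/macrophages the share was 72.8% (71.6 to 74.0) in cells labelled Otud1-/- and 67.4% (66.2 to 68.6) in WT cells. In dendritic cells it was 38.1% (33.6 to 42.8) in cells labelled Otud1-/- and 42.7% (38.3 to 47.2) in WT cells. The order of these classes was the same in both libraries, and in dendritic cells Fcgr2b gave most of the Fcγ UMIs. Within neutrophil clusters the shares were 95.3% in cells labelled Otud1-/- and 94.7% in WT cells for the cluster led by Stfa2l1, and 86.5% in cells labelled Otud1-/- and 83.4% in WT cells for the cluster led by Retnlg, so the libraries lay closer within these clusters than in the class. In the small neutrophil cluster led by Ngp (17 cells labelled Otud1-/- and 118 WT cells), they lay further apart, with 87.9% (79.4 to 93.8) in cells labelled Otud1-/- and 62.3% (50.6 to 73.1) in WT cells.

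Among monocyte/macrophages at clustering resolution 1, the libraries differed most in the Cfb cluster, where the activating share was 80.1% (77.7 to 82.3) in cells labelled Otud1-/- and 65.5% (63.6 to 67.3) in WT cells. It was 72.3% in cells labelled Otud1-/- and 73.2% in WT cells in the Ace cluster, and 65.4% in cells labelled Otud1-/- and 61.4% in WT cells in the Retnla cluster. Fcgr2b made up 19.9% of the Fcγ UMIs of Cfb cells labelled Otud1-/- and 34.5% of those of WT Cfb cells. Monocyte and macrophage genes also differed in that cluster. The classical monocyte genes summed to 3217 CPM in cells labelled Otud1-/- and 986 CPM in WT cells, and the complement C1q genes to 5569 CPM in cells labelled Otud1-/- and 8433 CPM in WT cells. Their part in the Fcγ difference was not tested. At resolution 2 the activating share of the cluster led by Cfb was 65.4% (59.7 to 70.8) in cells labelled Otud1-/- and 63.8% (61.8 to 65.8) in WT cells, and these intervals overlapped.

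**Figure D3:**
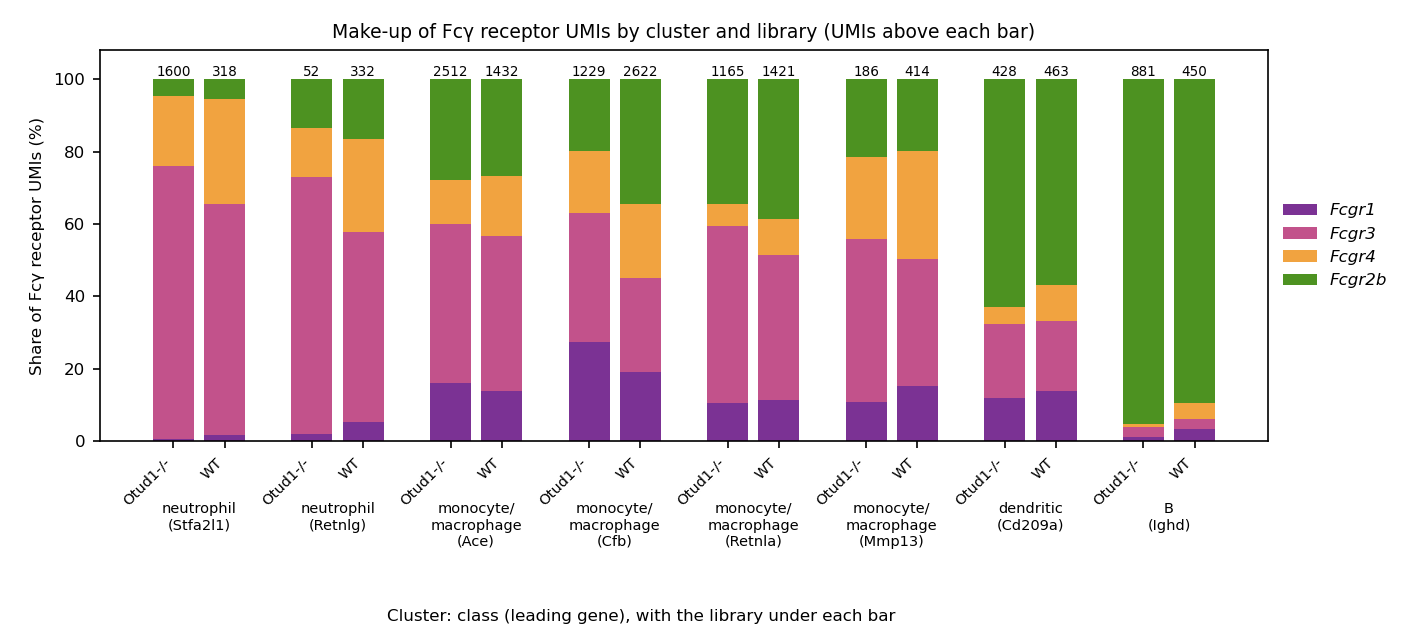
Share of Fcγ receptor UMIs (percent, stacked) from Fcgr1, Fcgr3, Fcgr4 and Fcgr2b in each cluster, the library labelled Otud1-/- left of the WT library, with the UMIs behind each bar above it. The Fcgr2b part of the Cfb cluster is 19.9% in the library labelled Otud1-/- and 34.5% in the WT library.

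Single cells held transcripts of both kinds as far as depth allowed. As counted, 58.4% of monocyte/macrophages labelled Otud1-/- and 25.01% of WT ones had UMIs of Fcgr2b and of an activating gene. At 1000 UMIs per cell the shares were 5.49% of monocyte/macrophages labelled Otud1-/- and 5.94% of WT ones, so the gap in the counted shares was not there at equal depth.

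Fcer2a (chr8:3681737-3694175, minus strand) encodes CD23, the lectin-type IgE receptor of mature B cells, and Fcmr (chr1:130865669-130880791, plus strand) the receptor for IgM. B cells held 80.9% of the Fcer2a UMIs in the library labelled Otud1-/- and 52.3% in the WT library, and of the Fcmr UMIs they held 79.5% in the library labelled Otud1-/- and 53.2% in the WT library. Their Fcer2a level was 190.1 CPM (182.3 to 198.2) in cells labelled Otud1-/- and 208.4 CPM (197.2 to 220.1) in WT cells. Their Fcmr level was 510.1 CPM (497.1 to 523.2) in cells labelled Otud1-/- and 419.5 CPM (403.5 to 435.9) in WT cells. Both genes thus had their highest class level in B cells in each library. At 1000 UMIs per cell an Fcmr UMI was seen in 36.8% of B cells labelled Otud1-/- and 30.7% of WT B cells, and an Fcer2a UMI in 16.7% of B cells labelled Otud1-/- and 16.9% of WT B cells. The T cell cluster led by Tnfrsf4 had 135.0 CPM in cells labelled Otud1-/- and 132.6 CPM in WT cells of Fcmr, beside B cell transcripts in the T class that are given next.

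In neutrophils, the levels of both genes moved with B cell markers, while some other classes departed from the B cell ratio. The 12 B cell markers summed in neutrophils to 4.90% of their B cell level in the library labelled Otud1-/- and to 25.8% in the WT library. Fcmr had 0.245 UMIs per UMI of the B cell gene Cd79a in neutrophils labelled Otud1-/- and 0.239 in WT neutrophils, and in B cells it had 0.232 in cells labelled Otud1-/- and 0.234 in WT cells. Fcer2a had 0.126 UMIs per Cd79a UMI in neutrophils labelled Otud1-/- and 0.0981 in WT neutrophils, and in B cells it had 0.0863 in cells labelled Otud1-/- and 0.116 in WT cells. The Fcmr counts of neutrophils thus stood to Cd79a much as those of B cells did. In monocyte/macrophages the Fcmr ratio was lower, at 0.184 (0.162 to 0.209) in cells labelled Otud1-/- and 0.172 (0.157 to 0.189) in WT cells. The Fcer2a ratio there was 0.0872 (0.0725 to 0.104) in cells labelled Otud1-/- and 0.0949 (0.0840 to 0.107) in WT cells. Only this WT value lay below that of B cells beyond the intervals. Fcgr2b behaved otherwise in myeloid cells. It had 0.901 UMIs per Cd79a UMI in monocyte/macrophages labelled Otud1-/- and 0.601 in WT ones, beside 0.0338 in cells labelled Otud1-/- and 0.0405 in WT cells of the B class. In T cells the Fcgr2b ratio was 0.0446 (0.0336 to 0.0580) in cells labelled Otud1-/- and 0.0662 (0.0575 to 0.0760) in WT cells, the WT value above that of WT B cells. Fcmr had 0.210 (0.183 to 0.239) UMIs per Cd79a UMI in T cells labelled Otud1-/- and 0.185 (0.169 to 0.201) in WT T cells, the WT value below that of WT B cells.

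**Figure D4:**
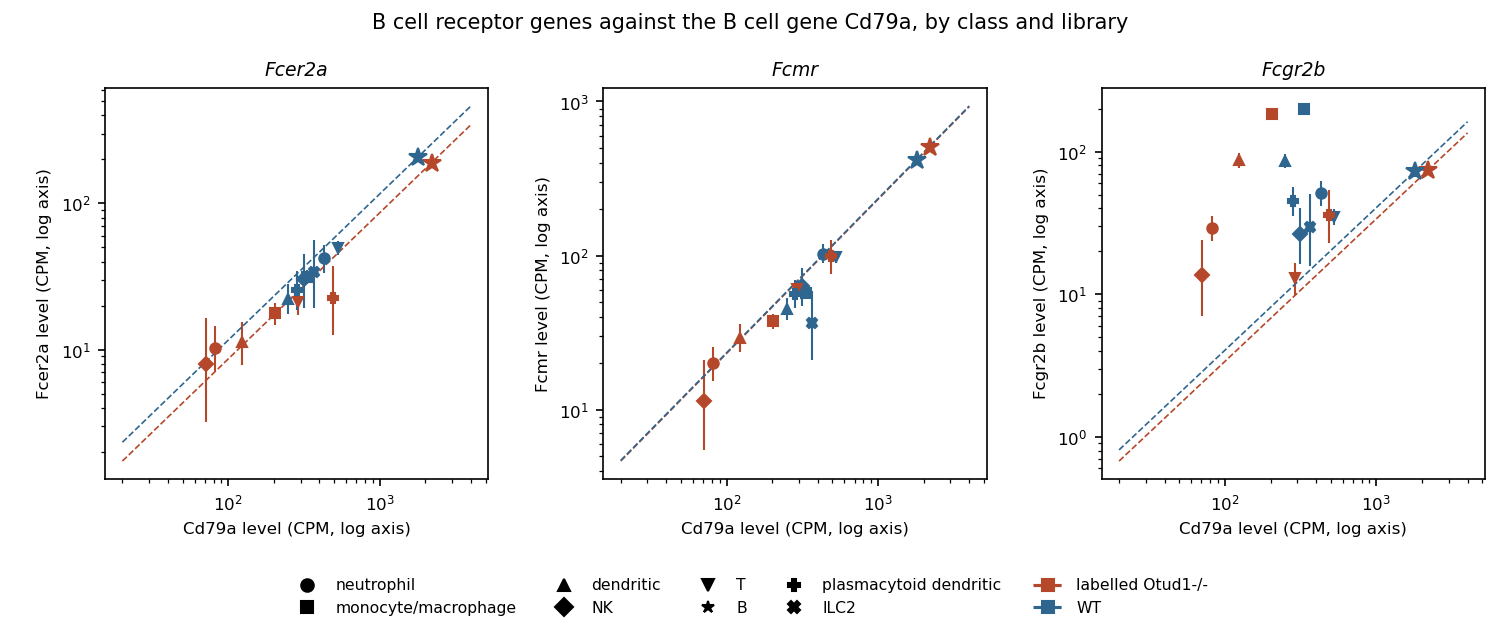
Levels (CPM, log axes) of Fcer2a, Fcmr and Fcgr2b against Cd79a, 1 point per cell class and library, with a dashed line for the ratio in B cells. Fcer2a and Fcmr lie near the line in neutrophils, and Fcmr lies below it in classes such as monocyte/macrophages. Fcgr2b lies above it in most other classes, most so in monocyte/macrophages and dendritic cells.

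Fcgrt (chr7:45092990-45103851, minus strand), the neonatal receptor that salvages IgG from degradation, was found mainly in dendritic cells, fibroblasts and, at a lower level, monocyte/macrophages. Dendritic cells had 83.7 CPM (74.0 to 94.3) in cells labelled Otud1-/- and 78.1 CPM (68.7 to 88.3) in WT cells, and monocyte/macrophages had 38.1 CPM in cells labelled Otud1-/- and 37.7 CPM in WT cells. Fibroblasts had 27 UMIs (87.7 CPM) in 31 cells labelled Otud1-/- and 21 UMIs (100.5 CPM) in 62 WT cells, and their WT interval overlapped that of dendritic cells. Among monocyte/macrophages the Retnla cluster, with 59.3 CPM in cells labelled Otud1-/- and 61.1 CPM in WT cells, was above the Ace cluster, with 21.2 CPM in cells labelled Otud1-/- and 20.9 CPM in WT cells. The libraries hardly differed in any of these levels, and neutrophils had only 2 Fcgrt UMIs in cells labelled Otud1-/- and 20 Fcgrt UMIs in WT cells.

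Between the libraries, 34 of 70 pairs of a member and a class had enough counts to compare (a mean of at least 20 CPM and at least 50 UMIs in the higher library, in 7 classes with at least 100 cells in both). Of these, 4 were at least 1.5-fold higher in the library labelled Otud1-/- and 12 at least 1.5-fold lower. Of the 12, 8 were Fcer2a or Fcmr outside B cells. The shares of all genes differed by class. They ran from 0.623% in B cells to 15.7% in neutrophils for higher, and from 1.75% in B cells to 32.9% in neutrophils for lower. Below, "higher" and "lower" mean past 1.5-fold unless a ratio is said to be within it.

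Neutrophils differed in the activating chain and 1 of its receptors. Fcgr3 was 1.94-fold higher (1.74 to 2.17) and Fcer1g 1.76-fold higher (1.68 to 1.83), 2 of 6 members compared, where 15.7% of all genes compared were higher. Fcgr2b (ratio 0.566, 0.423 to 0.758), Fcer2a (0.245) and Fcmr (0.195) were lower, 3 of 6 members, where 32.9% of all genes were lower. Fcgr4 was within 1.5-fold, at 1.08 (0.901 to 1.30). The median log2 ratio of the 6 members was -0.35 beside -0.20 for all genes, in a class where many genes differed. The 15 neutrophil markers also had a higher sum, 119600 CPM in neutrophils labelled Otud1-/- and 73770 CPM in WT neutrophils. Their part in the ratios of Fcgr3 and Fcer1g was not tested.

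Different clusters filled the neutrophil class in each library. The Stfa2l1 cluster held 793 of the 876 neutrophils labelled Otud1-/- and 184 of the 900 WT neutrophils, and the Retnlg cluster held 66 cells labelled Otud1-/- and 598 WT cells. Within the Stfa2l1 cluster Fcgr3 had 423.1 CPM in cells labelled Otud1-/- and 338.3 CPM in WT cells, a ratio of 1.25 (1.08 to 1.46). Fcer1g had 2808 CPM in cells labelled Otud1-/- and 2295 CPM in WT cells there, a ratio of 1.22 (1.16 to 1.30), and Fcmr alone was lower, where 11.4% of genes were. Within the Retnlg cluster Fcgr3 had 319.8 CPM in cells labelled Otud1-/- and 171.5 CPM in WT cells (37 UMIs labelled Otud1-/- and 175 UMIs WT), a ratio of 1.87 (1.27 to 2.67), where 13.4% of genes were higher. Fcer1g had a ratio of 1.37 (1.18 to 1.58) there, and Fcer2a was lower (3 UMIs labelled Otud1-/- and 66 UMIs WT), where 29.7% of genes were. The Ngp cluster, left out of the counts of members because it has 17 cells labelled Otud1-/-, had 241.6 CPM in cells labelled Otud1-/- and 98.08 CPM in WT cells of Fcgr3, a ratio of 2.46 (1.58 to 3.90), and 1573 CPM in cells labelled Otud1-/- and 796.2 CPM in WT cells of Fcer1g, a ratio of 1.98 (1.68 to 2.32). As counted, both activating genes were thus above their WT level within each of the 3 clusters beyond counting error. After thinning to equal depth, the shares of cells with an Fcgr3 UMI had overlapping intervals in each cluster. In the Stfa2l1 cluster they were 30.4% (27.1 to 33.8) in cells labelled Otud1-/- and 28.1% (21.6 to 35.3) in WT cells. The thinned Fcer1g shares were apart only in that cluster, at 91.4% (89.1 to 93.3) labelled Otud1-/- and 82.6% (76.2 to 87.85) WT. In the Retnlg cluster they were 65.6% in 32 cells labelled Otud1-/- and 68.3% in 454 WT cells. For Fcgr2b the ratios were 0.927 (0.542 to 1.68) in the Stfa2l1 cluster, 1.12 (0.431 to 2.47) in the Retnlg cluster and 0.578 (0.260 to 1.19) in the Ngp cluster, all with intervals that include 1, and its class log2 ratio was no longer past 1.5-fold without doublet removal (-0.43) or with only Y-linked, Xist-free cells (-0.44). In cells with Y-linked and no Xist UMIs the class log2 ratios were 0.99 for Fcgr3 and 0.67 for Fcer1g, so both held there. Scaling by trimmed mean of M values (TMM) moved every neutrophil log2 ratio up by 0.58, and then 3 of 6 members were higher (Fcgr4 too, at 0.69) and 2 lower, without Fcgr2b (-0.23). The share of all genes past 1.5-fold under TMM is not given beside these counts.

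**Figure D5:**
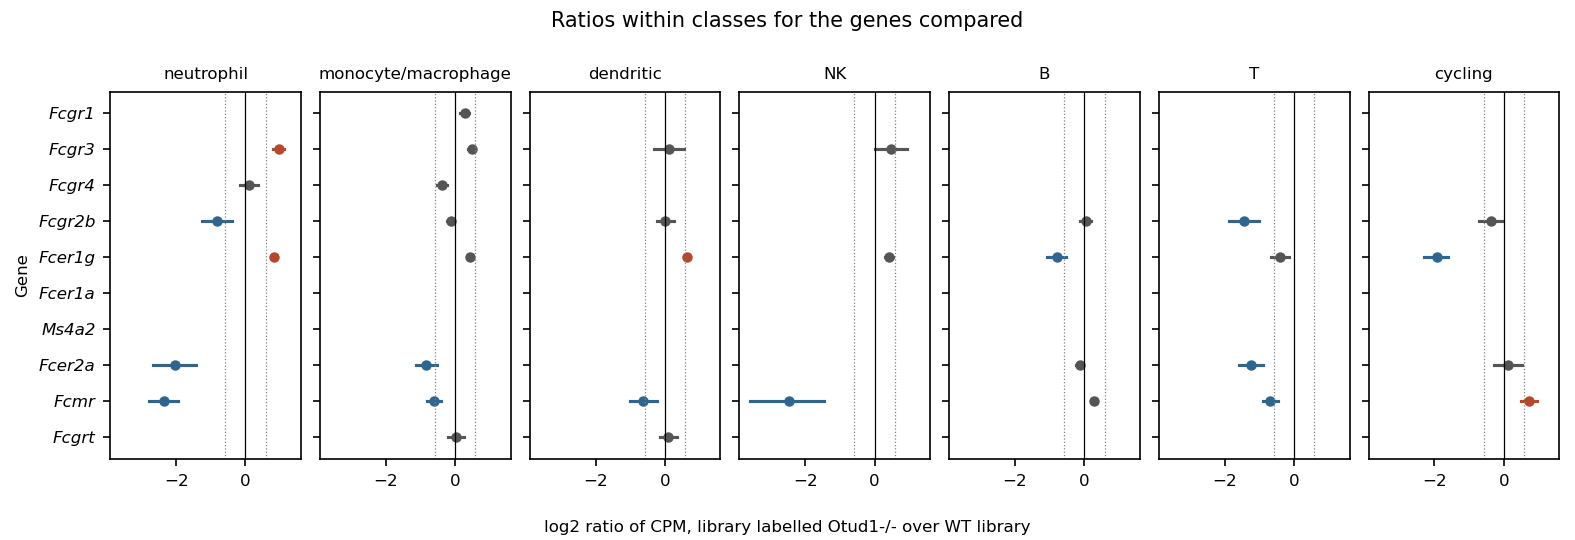
Log2 ratio of CPM, library labelled Otud1-/- over WT, for each member compared in each of 7 classes, with 95% intervals for counting error and dotted lines at 1.5-fold (red higher, blue lower, grey between). Fcgr3 and Fcer1g in neutrophils lie to the right, at 0.95 and 0.81, and Fcer2a and Fcmr outside B cells mostly to the left.

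In monocyte/macrophages 0 of 8 members compared were higher, where 5.2% of genes were. The ratios were 1.21 (1.10 to 1.33) for Fcgr1, 1.39 (1.31 to 1.47) for Fcgr3 and 1.36 (1.33 to 1.39) for Fcer1g. They were 0.773 (0.699 to 0.854) for Fcgr4, 0.915 (0.853 to 0.981) for Fcgr2b and 1.01 (0.862 to 1.18) for Fcgrt. Fcer2a (0.561) and Fcmr (0.653) were lower, 2 of 8 members where 4% of genes were, and the B cell markers stood at 16.6% of their B cell level in this class in the library labelled Otud1-/- and at 25.8% in the WT library. With TMM scaling Fcmr was within 1.5-fold (log2 ratio -0.55). Single clusters held larger differences. In the Cfb cluster Fcgr1 (1.56, 1.36 to 1.80) and Fcgr3 (1.503, 1.33 to 1.70) were higher, where 10% of genes were. Fcgr2b (0.632, 0.546 to 0.729) was lower there with Fcer2a and Fcmr, where 11.1% were. At resolution 2 the Cfb cluster gave ratios of 0.720 (0.535 to 0.953) for Fcgr1, 0.844 (0.669 to 1.05) for Fcgr3 and 0.669 (0.539 to 0.823) for Fcgr2b, so the direction turned for Fcgr1 and Fcgr3 and not for Fcgr2b. In the Retnla cluster Fcgr4 (0.624, 0.460 to 0.839) was lower with Fcer2a, where 3.94% of genes were, and in the Ace cluster only Fcmr was lower, where 4.25% were. At resolution 2 the cluster led by Pf4, a leading gene of the Retnla cluster too, had a Fcgr4 ratio of 0.867 (0.630 to 1.18), within 1.5-fold.

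In dendritic cells Fcer1g was 1.55-fold higher (1.47 to 1.63), 1 of 5 members where 2.07% of genes were higher (at clustering resolution 0.5 its log2 ratio of 0.57 was just inside the threshold), and Fcmr (0.652) was lower, where 8.11% were, but not with TMM scaling (log2 ratio -0.44). Fcgr2b (1.01, 0.851 to 1.20), Fcgr3 (1.09, 0.811 to 1.47) and Fcgrt (1.07, 0.900 to 1.28) were within 1.5-fold. In the main dendritic cluster, marked by Cd209a, Fcer1g had 1232 CPM in cells labelled Otud1-/- and 802.2 CPM in WT cells, a ratio of 1.54, where 2.13% of genes were higher. NK cells showed the same sign at a smaller size. Their ratios were 1.33 (1.23 to 1.43) for Fcer1g and 1.38 (1.01 to 1.90) for Fcgr3, so 0 of 3 members were higher, where 6.87% of genes were. Fcmr (0.181) was lower in NK cells, where 7.84% of genes were, on 10 UMIs in cells labelled Otud1-/- and 50 UMIs in WT cells.

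In B cells 0 of 4 members were higher, where 0.623% of genes were, and Fcer1g (0.573, 0.474 to 0.693) was lower, where 1.75% were. The monocyte/macrophage markers stood in B cells at 5.87% of their level in that class in the library labelled Otud1-/- and at 8.05% in the WT library, and their part in the Fcer1g ratio was not tested. With only Y-linked, Xist-free cells its log2 ratio was -0.58, just within 1.5-fold. The B cell receptors were within 1.5-fold, with ratios of 1.03 (0.914 to 1.15) for Fcgr2b, 0.912 (0.851 to 0.978) for Fcer2a and 1.22 (1.16 to 1.27) for Fcmr.

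In T cells 0 of 4 members were higher, where 0.853% of genes were. Fcgr2b (0.369), Fcer2a (0.425) and Fcmr (0.624) were lower, where 4.68% of genes were, beside B cell markers at 14.8% of their B cell level in the library labelled Otud1-/- and 29.3% in the WT library. Without doublet removal the log2 ratios of Fcer2a (-0.43) and Fcmr (-0.18) in T cells were within 1.5-fold. Fcer1g was within 1.5-fold in the class but not in its clusters. Its CPM was higher in the cytotoxic cluster led by Gzmk, where 16.1% of genes were. There 22.35% of cells labelled Otud1-/- and 21.05% of WT cells held an Fcer1g UMI. The CPM was lower in the clusters led by Dapl1, Tnfrsf4 and Trdc, where 9.01%, 3.3% and 9.33% of genes were. Monocyte/macrophage markers stood in T cells at 3.44% of their level in that class in the library labelled Otud1-/- and at 5.23% in the WT library, and their part in these ratios was not tested. Cycling cells, a class of mixed lineage, had higher Fcmr (1.66, 1.41 to 1.95), where 3.53% of genes were higher, and lower Fcer1g (0.261, 0.204 to 0.331), where 5.5% were lower. Without doublet removal the log2 ratio of Fcer1g in cycling cells was -0.22, against -1.92 with it. Their B cell markers stood at 61.6% of the B cell level in the library labelled Otud1-/- and at 58.4% in the WT library.

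Lists of genes around the receptors were read beside all genes of the class. Of all genes compared in neutrophils, 15.7% were higher and 32.9% lower. In neutrophils the activating ITAM arm had 2 of 18 compared genes higher and 8 lower. Its median log2 ratio was -0.01 beside -0.20 for all genes. The inhibitory arm had 2 of 11 higher and 4 lower (median 0.01), and the phagocytic effectors, which build the actin cup, 4 of 14 higher and 0 lower (median 0.45). With TMM scaling the counts were 9 higher and 4 lower, 6 higher and 2 lower, and 12 higher and 0 lower for these lists. That scaling raised every neutrophil ratio, and the share of all genes past 1.5-fold under it is not given beside these counts. The other ITAM adaptors had 1 of 5 higher and 3 lower, other antibody-binding genes 0 of 3 higher and 1 lower, and antibody heavy chains 1 of 5 higher and 3 lower. Fyn, a Src-family kinase abundant in lymphocytes, had 7.503 CPM in cells labelled Otud1-/- and 67.6 CPM in WT cells, and Cd3e of the T cell receptor had 4.69 CPM in cells labelled Otud1-/- and 50.3 CPM in WT cells. The 20 T cell markers stood in neutrophils at 1.18% of their T cell level in the library labelled Otud1-/- and at 13.1% in the WT library, and their part in the lower counts of these lists was not tested. The IgG2b heavy chain Ighg2b had 1222 CPM in cells labelled Otud1-/- and 131.2 CPM in WT cells, but 3832 of its 3910 UMIs in the library labelled Otud1-/- lay in 3 cells.

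In monocyte/macrophages these lists were read beside all genes compared, of which 5.2% were higher and 4% lower. The activating arm had 0 of 19 genes higher and 1 lower (median -0.09 beside 0.02 for all genes), the inhibitory arm 1 of 13 higher and 1 lower, and the phagocytic effectors 0 of 15 in either direction (median 0.22). The other ITAM adaptors had 0 of 5 higher and 3 lower, other antibody-binding genes 1 of 4 each way, and heavy chains 1 of 4 each way. Dok2, an adaptor that restrains Ras signalling, was the higher inhibitory gene, with 63.0 CPM in cells labelled Otud1-/- and 30.2 CPM in WT cells, a ratio of 2.09 (1.80 to 2.43). T cell markers stood at 6.18% of their T cell level in this class in the library labelled Otud1-/- and at 16.1% in the WT library. Cd3e had 16.9 CPM in cells labelled Otud1-/- and 56.5 CPM in WT cells, and the IgA heavy chain Igha had 216.5 CPM in cells labelled Otud1-/- and 658.1 CPM in WT cells, with 1 cell holding 81.3% of its UMIs in the library labelled Otud1-/- and 54.6% of its UMIs in the WT library.

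Of all genes compared in dendritic cells, 2.07% were higher and 8.11% lower. In dendritic cells 0 of 17 activating genes were higher and 3 lower (median -0.29 beside -0.07). Of the inhibitory genes 1 of 10 was higher and 2 lower, and 0 of 14 phagocytic effectors passed 1.5-fold. The other ITAM adaptors had 0 of 5 higher and 3 lower, other antibody-binding genes 1 of 3 each way, and heavy chains 0 of 4 higher and 3 lower. The adaptor gene Lat had 8.43 CPM in cells labelled Otud1-/- and 43.2 CPM in WT cells, and Cd3e had 7.18 CPM in cells labelled Otud1-/- and 47.2 CPM in WT cells, beside T cell markers at 3.601% of their T cell level in the library labelled Otud1-/- and 16.8% in the WT library. Ighg2b had 19.4 CPM in cells labelled Otud1-/- and 869.4 CPM in WT cells, and 1 WT cell held 90.6% of its WT UMIs. Of all genes compared in B cells, 0.623% were higher and 1.75% lower. In B cells 0 of 14 activating, 0 of 9 inhibitory and 0 of 13 phagocytic genes passed 1.5-fold. Nor did any of 4 other ITAM adaptors or of 4 other antibody-binding genes, and of 5 heavy chains 1 was higher and 1 lower. The kinase gene Lyn, which phosphorylates both kinds of motif, had 278.9 CPM in cells labelled Otud1-/- and 373.1 CPM in WT cells among B cells, a ratio of 0.748 (0.708 to 0.789). Ighg2b had 78.5 CPM in cells labelled Otud1-/- and 153.9 CPM in WT cells among B cells, and Ighg2c had 53.4 CPM in cells labelled Otud1-/- and 18.5 CPM in WT cells, with 53.9% of its UMIs in the library labelled Otud1-/- in 1 cell.

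The genes most like each member across 22 class-by-library sums were sought by Pearson's r of log2(CPM + 10), a description in which sums of 1 library share depth and free RNA. Fcer1g was nearest to Tyrobp (0.957), the other ITAM adaptor of myeloid and NK cells, and to the chemokine gene Ccl4 (0.939). Fcgr1 was nearest to Ms4a6d (0.963) and Ly6i (0.951), Fcgr3 to the integrin gene Itgam (0.947) and Ccl3 (0.932), and Fcgr4 to Gm21188 (0.977) and Treml4 (0.965). Fcgr2b had looser neighbours in Cd36 (0.872) and Gm6377 (0.871), and Fcgrt in Cttnbp2nl (0.914) and Nupr1 (0.877). Fcer1a was nearest to Slc45a3 (0.999), Fcer2a to Scd1 (0.961) and the IgD gene Ighd (0.926), and Fcmr to Scd1 and the chemokine receptor gene Cxcr5 (0.925 each). Ms4a2 had under 200 UMIs and was not placed. Among the members, Fcgr3 and Fcer1g had an r of 0.877, Fcgr3 and Fcgr4 0.829, and Fcgr1 and Fcgr4 0.741, so the low-affinity activating receptor was closest to its adaptor chain.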

How the data were processed

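Single-cell RNA libraries of gingival immune cells (10x 3′ chemistry, version 3.1, per the labels' protocols), 1 labelled Otud1-/- and 1 WT, were analysed. The authors deposited unnormalised UMI counts, 1 whole number per gene and barcode. Cell Ranger 5.0.0 and Seurat 3.2.3 with mm10 were used per the submitters' processing notes, while per the file headers the matrices came from Cell Ranger 6.0.1. The 10 members, the gene lists and the tests were chosen with earlier results of these data known.

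The library labelled Otud1-/- had 8109 barcodes and 44083735 UMIs, and the WT library 13267 barcodes and 44878537 UMIs. Cells needed 200 genes or more and no more than 15% mitochondrial UMIs, a limit that 14.2% of barcodes labelled Otud1-/- and 3.58% of WT barcodes exceeded. The automatic doublet threshold marked 3 cells labelled Otud1-/- and 0 WT cells, too few to have worked, and the top scores at 0.8% per 1000 barcodes (450 cells labelled Otud1-/- and 1355 WT cells) were removed. The libraries shared 37 barcode sequences. Both were clustered together without integration (scale 10000, 2000 variable genes, 30 components, 20 neighbours, Leiden resolution 1), with the members, Otud1, sex-linked, immunoglobulin, T cell receptor, ribosomal and mitochondrial genes left out of the variable genes. Of 30 clusters, 25 were named from 22 marker sets by a rule set after seeing the data (at least 3 markers in the top 50 genes, no tie, no other class ahead in the top 10). Lower-level doublets and free RNA remain possible in every class.

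UMIs were summed per class and library. Ratios divide the CPM of the library labelled Otud1-/- by that of WT, log2 ratios after adding 0.5 CPM, and a ratio of 1.5 in either direction was counted. Levels are given for all 10 members. From the signalling lists the 3 compared genes with the largest absolute log2 ratio were named in each of 4 classes, and the 2 genes with the highest r for each member with at least 200 UMIs, of which 1 is not reported here. The steps were tested on simulated data. Fcgr3 and Fcgr2b share 238 sequences of 30 bases, of which few lie near the 3′ ends (0.623% of Fcgr3 and 3.18% of Fcgr2b in the last 500 bases). Fcgr2b and Fcgrt overlap opposite-strand genes, and Fcgr3 and Fcgr4 small same-strand genes, so their counts are uncertain to that extent. Gene coordinates are from GENCODE M21 (mm10), promoters from RefSeq. Protein sequences were not analysed here. Python 3.11.15, numpy 2.4.6, scipy 1.17.1, pandas 2.3.3, scanpy 1.11.5, leidenalg 0.10.2, scikit-learn 1.9.0 and matplotlib 3.10.9 were used.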

Additional observations from a re-analysis of the deposited data

Results flagged for a closer look

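The CPM of Fcer1g, the common γ chain, differed in opposite directions between T cell clusters. In the cytotoxic cluster led by Gzmk, Fcer1g had 306.5 CPM in the library labelled Otud1-/- and 136.8 CPM in the WT library, a log2 ratio of 1.16, where 16.1% of genes were at least 1.5-fold higher. It was lower in the cluster led by Dapl1 (19.0 CPM in cells labelled Otud1-/- and 46.8 CPM in WT cells, log2 ratio -1.28), in the cluster led by Tnfrsf4 (23.2 CPM in cells labelled Otud1-/- and 57.1 CPM in WT cells, log2 ratio -1.28) and in the γδ T cell cluster led by Trdc (36.9 CPM in cells labelled Otud1-/- and 106.2 CPM in WT cells, log2 ratio -1.51). The shares of genes at least 1.5-fold lower in these clusters were 9.01%, 3.3% and 9.33%. In T cells as a class the monocyte/macrophage markers stood at 3.44% of their level in that class in the library labelled Otud1-/- and at 5.23% in the WT library, and B cells had 20.05 CPM of Fcer1g in the library labelled Otud1-/- and 34.97 CPM in the WT library, near the levels of the Dapl1 and Tnfrsf4 clusters. The part of such background in these ratios was not tested. The difference between the clusters was not tested.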

How the results depend on the processing

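Of 730 values recomputed under other settings, the class with the highest level of a member stayed the same except in 9 of 140, which were Fcgr3 in the WT library (monocyte/macrophages in 7 settings) and, with cells thinned to 1000 UMIs, Fcer1g (NK cells) and Fcgrt (dendritic cells) in the WT library. Among log2 ratios, 388 stayed within counting error, 86 did not, and 2 of those past 1.5-fold turned round, both in single clusters: Fcmr in T cells was 0.026 in the Tnfrsf4 cluster, and Fcgr2b in neutrophils was 0.17 in the Retnlg cluster. The cause was not tested in either. Ratios within 1.5-fold in their class also changed sign: Fcer1g in T cells was 1.16 in the Gzmk cluster, Fcgr2b in monocyte/macrophages 0.38 in the Ace cluster, and Fcgr4 in neutrophils -0.52 in the Stfa2l1 cluster and -0.46 in the Retnlg cluster. Smaller changes of sign were seen for Fcgr1 in the Retnla cluster (-0.034), Fcer2a in the B cell cluster led by Gm26917 (0.048) and Fcgrt in dendritic cells after thinning (-0.18). Fcgr1 and Fcgr3 of the Cfb cluster turned round in the cluster led by Cfb at resolution 2. The activating share of Fcγ UMIs in WT monocyte/macrophages was 66.0% without doublet removal and 68.9% in cells with Y-linked and no Xist UMIs. In neutrophils of the library labelled Otud1-/- it was 92.2% without doublet removal. In dendritic cells of that library it was 48.6% at resolution 0.5 and 32.7% with thinned cells (a setting chosen after seeing the data), and in WT dendritic cells 34.9% at resolution 2 and 30.4% in cells with Y-linked and no Xist UMIs. Pairs at least 1.5-fold lower numbered 6 in such cells, 29 with no minimum on counts and 3 with minima of 50 CPM and 100 UMIs, against 12. For these settings the share of all genes lower is not given beside the counts of pairs. With TMM and median-of-ratios scaling, which shift all neutrophil ratios, listed signalling genes higher numbered 31 and 26 in neutrophils against 10, 5 and 5 in monocyte/macrophages against 3, and 6 and 5 in dendritic cells against 2, and those lower in neutrophils numbered 12 with TMM against 19. The share of all genes past 1.5-fold under these scalings is not given beside these counts. Cells with Fcgr2b and an activating gene made up, after thinning, 5.49% of monocyte/macrophages, 0.984% of neutrophils and 0.637% of dendritic cells in the library labelled Otud1-/-, and 5.94%, 0.805% and 0.867% of these classes in the WT library. No paired analysis was possible because each genotype has 1 library. Depth limits the mast cell values to 21 cells labelled Otud1-/- and 118 WT cells.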
